A study of Mus musculus with 6 samples.

Results

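Transcripts of 29 genes that set the electrical activity of the heart muscle cell were examined in left ventricular myocardium of mice with heart failure with preserved ejection fraction (HFpEF) and of chow-fed controls. The genes are those that form or accompany cardiac sodium and potassium channels, pacemaker and cation channels, sodium pumps and a chloride-bicarbonate exchanger. They were listed by name, with no threshold on their values but with earlier results of these data known, and all 29 (the members) were found among the 54532 gene identifiers of the expression table. RNA was sequenced from 3 HFpEF and 3 Chow mice, 1 library per mouse, all male C57BL/6 mice that were 6 to 8 weeks old at the start. For 12 weeks, HFpEF mice ate a high-fat diet (60% of kcal) and drank water with 0.5 g/L of L-NAME, which blocks nitric oxide synthase. Over the same 12 weeks, the diet of Chow mice was standard chow, with plain water to drink. The sample labels name the tissue as heart, and the study's methods name it as dissected left ventricular myocardium. Values are FPKM, that is, fragments relative to exon length and a library-size term. Read numbers recovered from them totalled 13076772 to 15574914 per Chow library and 13461734 to 16027084 per HFpEF library, and the 29 genes had between 10 and 6806 reads per library. The library-size term implied by the FPKM was not this total. It lay below the total in every Chow library and above it in every HFpEF library, most of all in HFpEF replicate 3 (19316914 against 15196287). FPKM in HFpEF are therefore lower relative to Chow than levels per read would be. Levels per read were not compared.

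The upstroke of the cardiac action potential is carried by sodium channels, and potassium channels end it and hold the resting potential. Voltage-gated potassium channels open during the action potential, inward rectifiers act near rest, and ATP-sensitive (KATP) channels open when the energy state of the cell falls. Pacemaker channels carry a depolarizing current at negative potentials, and the sodium pump restores the ion gradients that all these currents run down. Most of these channels consist of a pore-forming subunit and accessory subunits that alter its gating or its transport to the membrane.

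The 6 libraries were not alike beyond their group labels. HFpEF replicate 3 stood apart from the other HFpEF libraries. Mitochondrially encoded genes took 7.17% of its reads, against 22.6% and 20.1% in HFpEF replicates 1 and 2 and 24.8% ± 1.03 (SD, n = 3) in Chow. A list of 12 ventricular cardiomyocyte genes, of which the cardiac actin gene Actc1 was the most abundant, was present in every library. Its summed FPKM was 22543, 23594 and 24305 in Chow replicates 1 to 3 and 15729, 16199 and 10828 in HFpEF replicates 1 to 3. All 12 genes were lower in every HFpEF library than in any Chow library. A list of 10 fibroblast genes, led by Gsn, summed to 730 to 916 FPKM in Chow, to 1355 and 1417 in HFpEF replicates 1 and 2 and to 6235 in HFpEF replicate 3. The summed level of atrial genes differed widely between libraries within both groups. The 10 genes of the atrial list, led by Myl7, the atrial myosin light chain, summed to 79.5, 81.2 and 656 FPKM in Chow replicates 1 to 3. The list summed to 2888, 4312 and 128 FPKM in HFpEF replicates 1 to 3, and Bmp10 was listed at 0 in every Chow library, at 148 FPKM in HFpEF replicate 1 and at 0.026 and 0.012 FPKM in HFpEF replicates 2 and 3. Of the list, Dkk3 and Nr2f2 were also higher in all 3 HFpEF libraries than in Chow, with Dkk3 at 0.941, 0.584 and 10.04 FPKM in Chow and 148, 74.1 and 40.7 FPKM in HFpEF. The tissue is given as ventricular, so Chow replicate 3 and HFpEF replicates 1 and 2 carried transcripts that mark atrial muscle. In such bulk samples, fewer cells of a type and less RNA per cell cannot be told apart.

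Between HFpEF and Chow, the channel and pump genes were more often lower than higher, and none passed the test across all genes. Of the 28 genes tested with limma, 0 had a Benjamini-Hochberg adjusted p under 0.05, as against 0.0984% of all 14225 genes tested. At an unadjusted p under 0.05, 8 of the 28 were lower (Scn4b, Kcnip2, Kcna5, Kcnj2, Kcnj8, Abcc9, Hcn2 and Slc4a3), where 13.1% of all genes were lower. At the same p, Cacna1d was higher, where 10.2% of all genes were. Leaving out 1 library at a time, 5 to 14 members were lower at that p, where 7.14% to 15.0% of all genes were. In these fits 0 to 6 members were higher, where 6.3% to 11.0% of all genes were. The groups did not overlap for 13 genes lower in HFpEF and for 2 genes higher in HFpEF, where 19.8% and 15.5% of all genes did so. Both counts rest on the library-size term of the FPKM. The fitted log2 fold change was negative for 24 of 28 genes, with a median of −0.47, as against −0.01 over all genes, and positive for 25 of 28 with a median of 0.30 when levels were set relative to cardiomyocyte genes. That scaling moved the median of all genes to 0.76, so the members' median stayed below it. On that scale 0 members were lower and 8 higher at an unadjusted p under 0.05 (0.183% and 67.1% of all genes), 0 and 8 were lower and higher without overlap (0.253% and 76.1%), and 7 had an adjusted p under 0.05 (55.6%). No gene met the study's definition of a DEG (adjusted p under 0.05 and absolute log2 fold change of at least 2), which held for 0.0562% of all genes in the higher and 0.0% in the lower direction. An exact permutation test of 3 mice against 3 cannot give a p below 0.1, and a p above the threshold does not show that a gene was equal in both groups.

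**Figure D1:**
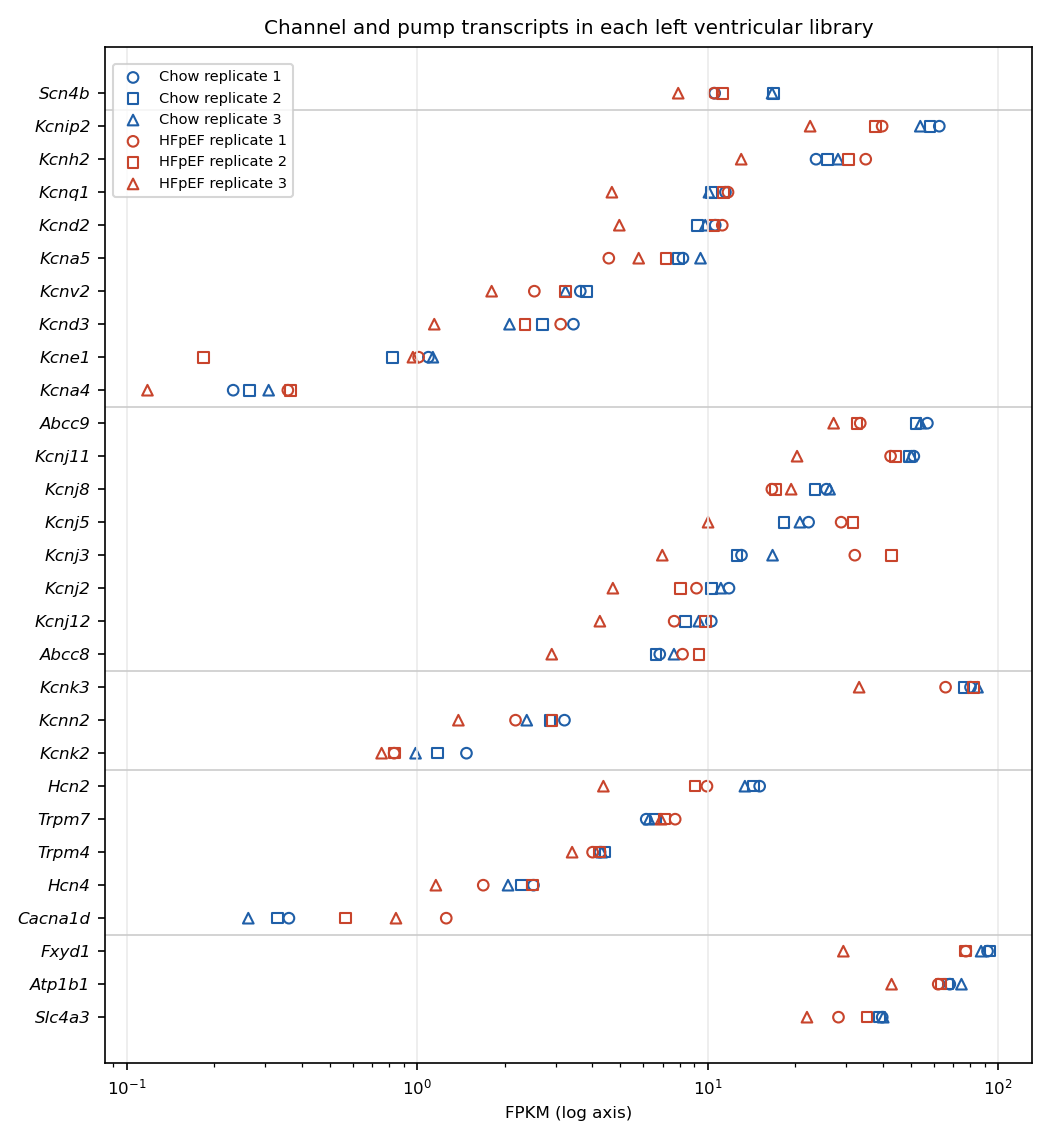
FPKM (log axis) of the 29 genes in each library, in blocks from top to bottom of sodium, voltage-gated potassium, inward rectifier and KATP, tandem-pore and calcium-activated potassium, pacemaker and cation channels, and pumps and exchangers. Blue symbols are Chow and red symbols are HFpEF libraries, with the replicate given by the shape. HFpEF replicate 3 (red triangle) is the lowest of the 6 libraries for 24 of the 29 genes.

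HFpEF replicate 3 was the lowest of all 6 libraries for 24 of the 29 genes. Taken relative to the mean of Chow, the tested members had a median log2 ratio of −0.26, −0.14 and −0.98 in HFpEF replicates 1 to 3, where the ventricular cardiomyocyte list had −0.59, −0.62 and −1.10. Without HFpEF replicate 3, the spread within HFpEF was smaller for most genes, and 6 members passed an adjusted p under 0.05 (limma), where 8.36% of all genes did. Abcc9, Kcnj8, Kcnip2 and Hcn2 fell, where 5.5% of all genes did, and Kcnj3 and Kcnj5 rose, where 2.86% of all genes did. In the same 5 libraries, 9 members were lower and 6 higher at an unadjusted p under 0.05, where 15.0% and 10.2% of all genes were. HFpEF replicates 1 and 2 both lay below every Chow library for 13 of the 28 tested members, where 24.0% of all genes did, and both lay above for 6 (Kcnh2, Kcnj3, Kcnj5, Abcc8, Cacna1d and Trpm7), where 20.4% of all genes did. The untested Kcna4 also lay above. Kcna4, Kcnh2, Kcnj3, Kcnj5 and Abcc8 were then lower in HFpEF replicate 3 than in any Chow library.

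**Figure D2:**
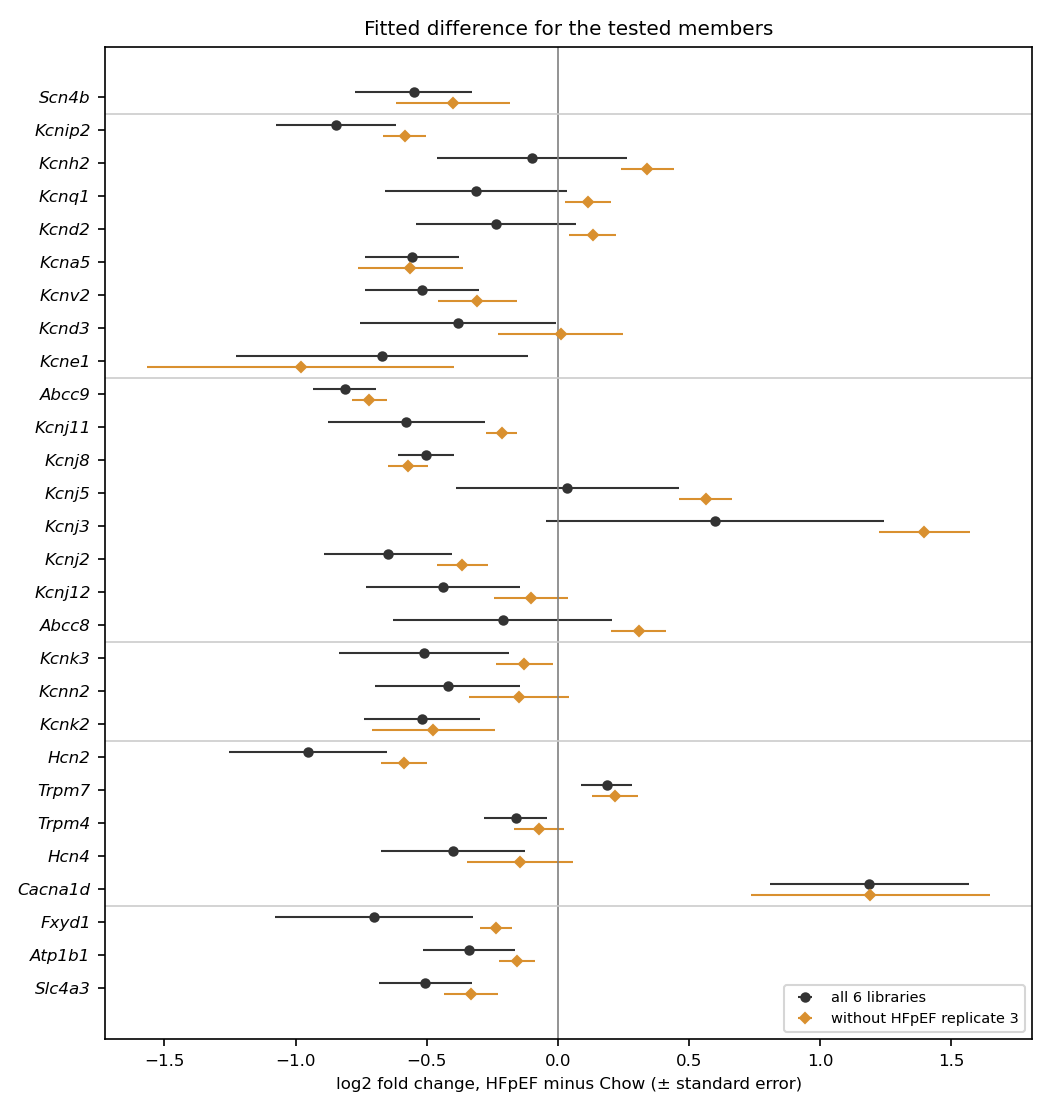
Fitted log2 fold change (HFpEF minus Chow, ± standard error from limma) of the 28 genes tested, with all 6 libraries (black circles) and without HFpEF replicate 3 (orange diamonds), in the same blocks. Relative to all genes, 24 of the 28 black circles lie below 0, and Kcnj3 moves from 0.60 to 1.40 and Kcnh2 from −0.10 to 0.34 when HFpEF replicate 3 is left out.

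The promoters of the 4 genes that fell without HFpEF replicate 3 are shown because Abcc9 and Kcnj8 are neighbours whose products form 1 channel, and Kcnip2 and Hcn2 had the most negative fitted log2 fold changes among the members with all 6 libraries. Sequences are the bases just before the RefSeq start (GRCm38.p6), given 5′ to 3′ on the strand of the gene, which is minus for Abcc9 (chr6:142702316-142702524), Kcnj8 (chr6:142571615-142571864) and Kcnip2 (chr19:45816064-45816313) and plus for Hcn2 (chr10:79716384-79716633). Capitals mark the E-box CANNTG and the GC box GGGCGG on either strand. For Abcc9, 41 of the 250 bases lie inside the gene in GENCODE and are not shown.
Abcc9: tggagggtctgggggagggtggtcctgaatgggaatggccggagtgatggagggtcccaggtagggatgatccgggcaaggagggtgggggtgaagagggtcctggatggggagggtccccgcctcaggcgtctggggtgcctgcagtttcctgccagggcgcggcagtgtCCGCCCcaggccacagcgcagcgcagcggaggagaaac
Kcnj8: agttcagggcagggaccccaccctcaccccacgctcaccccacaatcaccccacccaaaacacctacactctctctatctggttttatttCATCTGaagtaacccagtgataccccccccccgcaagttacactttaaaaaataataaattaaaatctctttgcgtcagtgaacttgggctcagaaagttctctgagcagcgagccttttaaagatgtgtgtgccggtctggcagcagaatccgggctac
Kcnip2: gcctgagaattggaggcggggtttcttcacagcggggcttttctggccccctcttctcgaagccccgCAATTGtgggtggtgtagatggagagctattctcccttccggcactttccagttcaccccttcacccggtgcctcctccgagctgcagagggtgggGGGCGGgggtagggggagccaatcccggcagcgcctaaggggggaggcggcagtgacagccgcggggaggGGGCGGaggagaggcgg
Hcn2: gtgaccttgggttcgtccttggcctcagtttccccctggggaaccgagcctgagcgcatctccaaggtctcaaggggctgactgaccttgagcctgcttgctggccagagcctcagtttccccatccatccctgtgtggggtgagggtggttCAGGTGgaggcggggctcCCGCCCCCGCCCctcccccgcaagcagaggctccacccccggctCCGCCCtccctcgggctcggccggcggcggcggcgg
Over 250 bases before the start, an E-box was found in 17 of the 25 promoters that 21 of the 29 members have in RefSeq and in 66.2% of all 32851 promoters. The Abcc9 E-box lies in the stretch that is not shown. The GC box was found in 13 of the 25 and in 32.7% of all, including Abcc9, Kcnip2 and Hcn2 but not Kcnj8. TATAAA was found before Cacna1d alone among the members and in 12.4% of all promoters. ACANNTGT, which contains an E-box, and the MEF2 site were found in 0 of the 25 and in 6.31% and 2.92% of all. These matches describe letters in the window and not binding.

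Scn4b, the only sodium channel gene among the members, encodes a beta subunit that associates with the cardiac sodium channel. It had 10.6, 16.8 and 16.7 FPKM in Chow replicates 1 to 3 and 10.5, 11.3 and 7.92 in HFpEF replicates 1 to 3. Chow replicate 1 lay within the HFpEF range, so the groups overlapped. Its log2 fold change of −0.55 (standard error 0.22) had an adjusted p of 0.208 (limma), and without HFpEF replicate 3 it was −0.40 with an adjusted p of 0.325 (range over all alternatives 0.194 to 0.451). Of 13 other sodium channel genes on a wider list, 5 were expressed highly enough to be tested, of which 2 were lower and 2 higher at an unadjusted p under 0.05. Scn4a, the skeletal muscle sodium channel, had 7.71, 9.44 and 8.76 FPKM in Chow and 6.03, 5.73 and 3.67 FPKM in HFpEF, a mean lower by 40.4% (adjusted p = 0.123, limma). Scn7a had 7.86, 7.19 and 6.83 FPKM in Chow and 10.6, 10.6 and 10.7 FPKM in HFpEF (log2 fold change 0.54, adjusted p = 0.0951, limma). No library of either gene lay within the range of the other group.

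Among the 9 voltage-gated potassium channel genes, Kcnip2 had the most negative fitted log2 fold change. Kcnip2 encodes KChIP2, the accessory subunit of the channel that carries the fast transient outward current, and lies on chromosome 19 from 45791839 to 45816061 (GRCm38). It had 62.7, 58.2 and 54.0 FPKM in Chow replicates 1 to 3 and 39.9, 37.8 and 22.5 FPKM in HFpEF replicates 1 to 3. Every HFpEF library was below every Chow library, and the HFpEF mean of 33.4 ± 9.48 (SD, n = 3) was 42.7% lower than the Chow mean of 58.3 ± 4.39 (SD, n = 3). The log2 fold change was −0.84 (standard error 0.23, unadjusted p = 0.00867, adjusted p = 0.124, limma). Without HFpEF replicate 3 it was −0.58 with an adjusted p of 0.0175, in a range over all alternatives from 0.0175 to 0.633. Relative to cardiomyocyte genes its log2 fold change was −0.07, and whether the lower cardiomyocyte list had a part in the result was not tested.

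The genes of the pore-forming partners of KChIP2 overlapped between groups. Kcnd2, which encodes Kv4.2, had 10.6, 9.21 and 9.81 FPKM in Chow and 11.2, 10.5 and 4.96 FPKM in HFpEF. HFpEF replicates 1 and 2 lay around the upper end of the Chow range and HFpEF replicate 3 below it, and the log2 fold change was −0.24 (adjusted p = 0.653, limma). Kcnd3, which encodes Kv4.3, had 2.08 to 3.45 FPKM in Chow and 1.14 to 3.12 FPKM in HFpEF. The ratio of Kcnip2 to Kcnd2 within a library was 5.91, 6.32 and 5.50 in Chow and 3.55, 3.62 and 4.54 in HFpEF. The ratio was lower in every HFpEF library than in any Chow library, HFpEF replicate 3 included, by 0.61 on the log2 scale (exact two-sided permutation p = 0.1, the smallest possible, adjusted p = 0.55 over 11 ratios). This ratio does not depend on the scaling between libraries, but it can depend on the mix of cells. It was lowest in HFpEF replicates 1 and 2, where the atrial list summed to 2888 and 4312 FPKM. Within Chow it was lowest in replicate 3, where that list summed to 656 FPKM. HFpEF replicate 3, at 128 FPKM for the list, still had a lower ratio than Chow replicate 3. The part of atrial transcripts in the ratio was not tested. Irx5, a transcription factor known to repress Kcnd2 in the inner ventricular wall, had 3.66, 3.73 and 3.23 FPKM in Chow and 1.59, 1.32 and 1.56 FPKM in HFpEF (adjusted p = 0.0557, limma), and its relatives Irx3 and Irx4 were also lower in every HFpEF library. Relative to cardiomyocyte genes, the log2 fold changes of Irx5, Irx3 and Irx4 were −0.42, −0.19 and −0.06 (adjusted p = 0.182, 0.460 and 0.780, limma). These 3 belong to a list of 7 transmural factors, of which the others overlapped between groups. Among those, Tbx5 had 6.73, 6.38 and 6.85 FPKM in Chow and 15.9, 19.1 and 1.83 FPKM in HFpEF, with a log2 fold change of 0.31 that was 1.37 without HFpEF replicate 3 (adjusted p = 0.00858, limma).

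Kcna5, which encodes Kv1.5 of the ultrarapid delayed rectifier, had 8.22, 7.92 and 9.45 FPKM in Chow and 4.57, 7.20 and 5.79 FPKM in HFpEF. HFpEF replicate 1 was the lowest, and all HFpEF libraries lay below Chow. The log2 fold change was −0.56 (adjusted p = 0.155, limma) and hardly differed without HFpEF replicate 3, at −0.56 (adjusted p = 0.154, range over all alternatives 0.109 to 0.460). Kcnv2, a silent subunit that joins other voltage-gated channels, had 3.64, 3.82 and 3.24 FPKM in Chow and 2.53, 3.24 and 1.80 FPKM in HFpEF. Its highest HFpEF and lowest Chow library met at 3.24 FPKM, and the unadjusted p was 0.0514 (limma). Kcna4, which encodes Kv1.4 of the slow transient outward current, had 0.118 to 0.366 FPKM and 11 to 30 reads per library, below the minimum for the test. The groups overlapped for Kcna4.

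For Kcnh2, Kcnq1 and Kcne1, genes of the rapid and slow delayed rectifiers, the groups overlapped. Kcnh2, which encodes the pore of the rapid delayed rectifier, had 23.6, 25.8 and 28.1 FPKM in Chow and 35.0, 30.6 and 13.0 FPKM in HFpEF. HFpEF replicates 1 and 2 lay above every Chow library and HFpEF replicate 3 below, so that the log2 fold change was −0.10 with all libraries (adjusted p = 0.884, limma) and 0.34 without HFpEF replicate 3 (adjusted p = 0.102, range over all alternatives 0.0399 to 0.989). The lowest value of that range came from scaling to cardiomyocyte genes, where 55.6% of all genes had an adjusted p under 0.05. Kcnq1, the pore of the slow delayed rectifier, had 10.1 to 11.5 FPKM in Chow, 11.8 and 11.3 FPKM in HFpEF replicates 1 and 2 and 4.68 FPKM in HFpEF replicate 3. Its accessory subunit Kcne1 had 0.822 to 1.13 FPKM in Chow and 1.01, 0.184 and 0.966 FPKM in HFpEF. HFpEF replicate 2 was the low library of Kcne1 and held 10 of its reads, the fewest of any member in any library. Of 31 other voltage-gated potassium channel genes, 10 were tested, of which 2 were lower at an unadjusted p under 0.05. Kcna7 was 1 of them, with a mean lower by 33.7%. Kcng2, a silent subunit and the most abundant of these genes, had 77.4, 72.3 and 71.9 FPKM in Chow and 56.2, 70.4 and 37.2 FPKM in HFpEF (adjusted p = 0.260, limma).

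KATP channels pair a pore of Kcnj8 or Kcnj11 with a sulfonylurea receptor encoded by Abcc9 or Abcc8, and 3 of these 4 genes (Kcnj8, Kcnj11 and Abcc9) were lower in all 3 HFpEF libraries than in any Chow library, where 19.8% of all genes were. Abcc9 encodes SUR2, the receptor of ventricular and vascular KATP channels, and lies on chromosome 6 from 142587862 to 142702315. It had 57.1, 52.2 and 54.1 FPKM in Chow replicates 1 to 3 and 33.5, 32.6 and 27.1 FPKM in HFpEF replicates 1 to 3. The HFpEF mean of 31.1 ± 3.46 (SD, n = 3) was 42.9% lower than the Chow mean of 54.5 ± 2.46 (SD, n = 3), and the groups lay far apart compared with their spread. Its log2 fold change of −0.81 (standard error 0.12, unadjusted p = 0.000333) had the lowest adjusted p among the members, 0.0757 (limma). Without HFpEF replicate 3 it was −0.72 (adjusted p = 0.0126, range over all alternatives 0.0126 to 0.798), and relative to cardiomyocyte genes it was −0.04.

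Kcnj8, which encodes Kir6.1, a pore subunit prominent in vascular mural cells, lies 16247 bases from Abcc9 on the same strand, from 142564837 to 142571614. It had 25.6, 23.4 and 26.3 FPKM in Chow and 16.6, 17.1 and 19.4 FPKM in HFpEF. HFpEF replicate 3 was here the highest of its group, and all 3 HFpEF libraries lay below Chow. The mean was 29.4% lower, and the log2 fold change was −0.50 (standard error 0.11, unadjusted p = 0.00243, adjusted p = 0.106, limma). Without HFpEF replicate 3 it was −0.57 (adjusted p = 0.0168, range over all alternatives 0.0168 to 0.340), but relative to cardiomyocyte genes it was 0.27. Of 12 pericyte and smooth muscle genes, 2 (Vtn and Des) were lower without overlap, where 19.8% of all genes tested were. The list summed to 715 to 748 FPKM in Chow and to 1038, 535 and 784 FPKM in HFpEF, with Des as its most abundant gene and none listed at 0 in all libraries. Des is also a gene of heart muscle cells. Of the 11 genes of the list that were tested, 5 had a negative and 6 a positive log2 fold change. Acta2, Myh11 and Cnn1 were highest in HFpEF replicate 1, while Tagln, Pdgfrb, Notch3 and Rgs4 were highest in HFpEF replicate 3. The median log2 ratio of the tested genes to the Chow mean was −0.11, −0.47 and 0.50 in HFpEF replicates 1 to 3. Without HFpEF replicate 3, 7 of the 11 were negative. Then 6 were lower and 0 higher without overlap (24.0% and 20.4% of all genes). An adjusted p under 0.05 (limma) was reached by 2, both lower (5.5% of all genes). The part of these cells in the Kcnj8 and Abcc9 values was not tested.

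Kcnj11 encodes Kir6.2, the pore of the cardiomyocyte KATP channel, and had 51.3, 49.6 and 50.3 FPKM in Chow and 42.6, 44.4 and 20.3 FPKM in HFpEF. HFpEF replicates 1 and 2 were just below the narrow Chow range and HFpEF replicate 3 far below it. The log2 fold change was −0.58 (adjusted p = 0.286, limma) and −0.21 without HFpEF replicate 3 (adjusted p = 0.0834, range over all alternatives 0.0834 to 0.471). Abcc8 encodes SUR1, the receptor found in atrial muscle of the mouse, and lies 3758 bases from Kcnj11. It had 6.84, 6.65 and 7.66 FPKM in Chow and 8.19, 9.32 and 2.91 FPKM in HFpEF. Its 3 highest libraries, HFpEF replicate 2, HFpEF replicate 1 and Chow replicate 3, were in the same order as in the atrial list, while HFpEF replicate 3 was lowest for Abcc8 and not for the atrial list. The ratio of Abcc8 to Abcc9 was 0.120, 0.127 and 0.142 in Chow, 0.244 and 0.286 in HFpEF replicates 1 and 2 and 0.107 in HFpEF replicate 3. The ratio of Kcnj8 to Kcnj11 was 0.472 to 0.523 in Chow, 0.390 and 0.386 in HFpEF replicates 1 and 2 and 0.954 in HFpEF replicate 3. Both ratios therefore put HFpEF replicate 3 on the other side of Chow from HFpEF replicates 1 and 2.

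The genes of the acetylcholine-activated channel, which slows the heart under vagal control and is most abundant in atrial muscle, were high in 2 of the 3 HFpEF libraries. Kcnj3, which encodes Kir3.1, had 13.1, 12.6 and 16.7 FPKM in Chow and 32.1, 43.0 and 6.98 FPKM in HFpEF. HFpEF replicates 1 and 2 lay well above Chow and HFpEF replicate 3 below every Chow library. With all libraries its log2 fold change was 0.60 (standard error 0.64) at an adjusted p of 0.592 (limma), and it was 1.40 without HFpEF replicate 3 (standard error 0.17, adjusted p = 0.0161, range over all alternatives 0.0161 to 0.934). Its partner Kcnj5, which encodes Kir3.4, had 22.3, 18.3 and 20.8 FPKM in Chow and 28.8, 31.7 and 10.03 FPKM in HFpEF. Kcnj5 had the same order of HFpEF libraries, with a log2 fold change of 0.04 with all libraries (adjusted p = 0.965, limma) and 0.56 without HFpEF replicate 3 (adjusted p = 0.0309, range over all alternatives 0.0309 to 0.974). The ratio of Kcnj3 to Kcnj5 was 0.587, 0.689 and 0.805 in Chow and 1.11, 1.36 and 0.696 in HFpEF. Of the atrial list, Myl7 had 3.81, 0.289 and 237 FPKM in Chow and 975, 2073 and 8.60 FPKM in HFpEF. Chow replicate 3 also had the highest Kcnj3 of its group, while Kcnj5 was highest in Chow replicate 1. The part of atrial transcripts in the values of Kcnj3, Kcnj5 and Abcc8 was not tested. Exons of Gm26794 on the opposite strand cover 31.1% of the Kcnj3 exon length. No source used here says whether reads were counted by strand, so reads of both genes may have been mixed. Gm26794 itself had 0.012 to 0.315 FPKM.

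**Figure D3:**
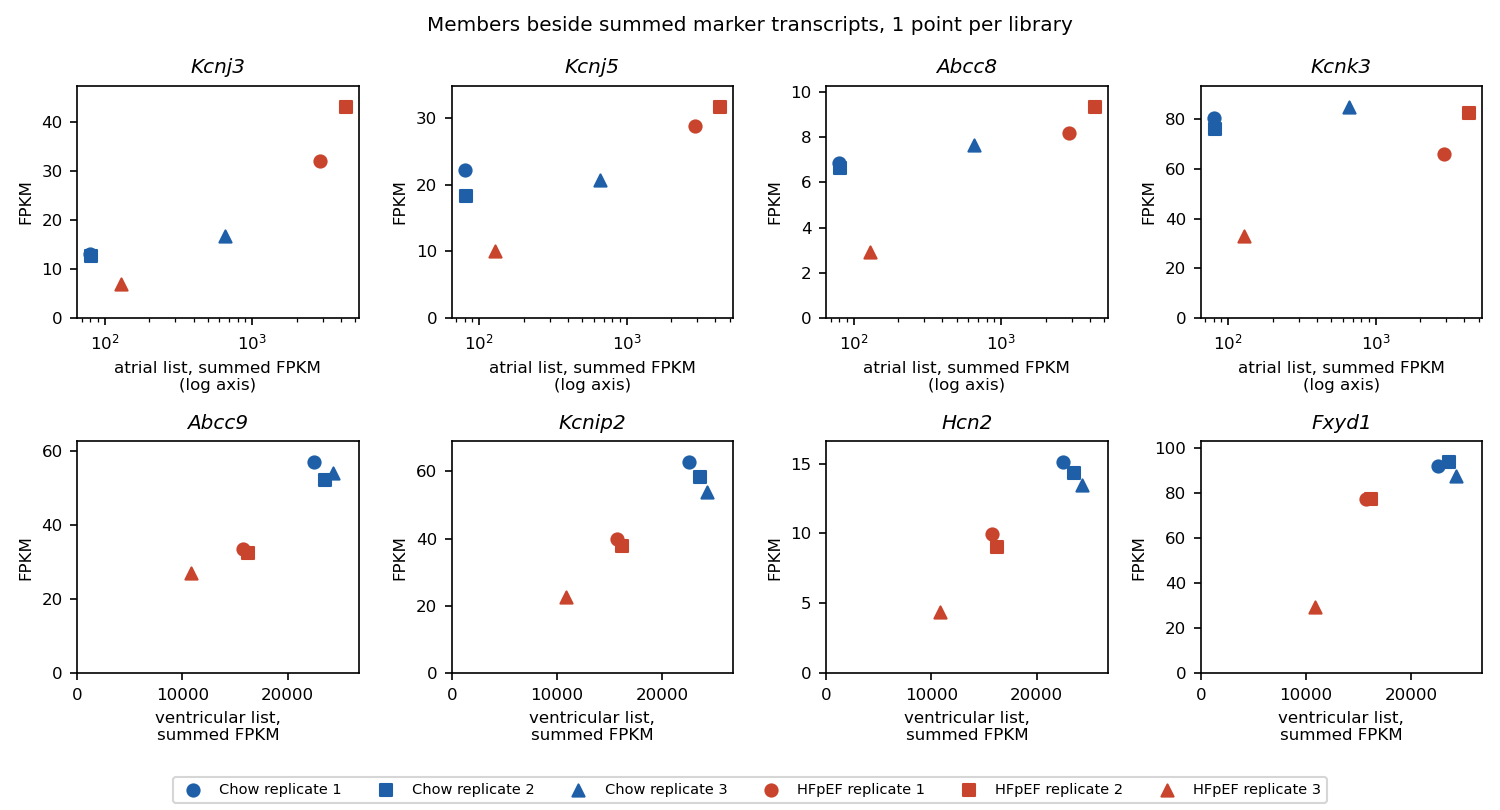
FPKM of 8 members against summed FPKM of marker lists, 1 point per library, with Chow in blue and HFpEF in red. In the top row, the atrial list (log axis) and Kcnj3, Kcnj5 and Abcc8 are highest in HFpEF replicates 1 and 2 while Kcnk3 is not, and in the bottom row the ventricular list and Abcc9, Kcnip2, Hcn2 and Fxyd1 are lower in every HFpEF library than in Chow.

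Kcnj2 and Kcnj12 encode Kir2.1 and Kir2.2, the channels of the inward rectifier current that holds the resting potential. Kcnj2 had 11.8, 10.3 and 11.1 FPKM in Chow and 9.15, 8.06 and 4.72 FPKM in HFpEF. All HFpEF libraries of Kcnj2 lay below Chow, with a log2 fold change of −0.65 (standard error 0.24, adjusted p = 0.188, limma) that was −0.36 without HFpEF replicate 3 (adjusted p = 0.0809, range over all alternatives 0.0809 to 0.503). Kcnj12 had 8.40 to 10.3 FPKM in Chow and 7.67, 9.81 and 4.25 FPKM in HFpEF, and its groups overlapped. In all, 3 of the 8 inward rectifier and KATP genes were lower at an unadjusted p under 0.05 (Kcnj2, Kcnj8 and Abcc9) and 4 were lower without overlap, where 13.1% and 19.8% of all genes were. Of 9 further inward rectifier genes, Kcnj14 alone reached 0.5 FPKM in 3 libraries and was tested, and its HFpEF mean was 0.795 times the Chow mean (adjusted p = 0.638, limma). The untested Kcnj15 had 0.078, 0.243 and 0.393 FPKM in Chow and 1.91, 0.421 and 2.44 FPKM in HFpEF, without overlap.

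The tandem-pore and calcium-activated potassium channel genes showed no member past an unadjusted p of 0.05. Kcnk3 encodes TASK-1, a background channel, and was the member with the highest level after Fxyd1, at 80.3, 76.3 and 84.9 FPKM in Chow and 65.9, 82.4 and 33.2 FPKM in HFpEF. HFpEF replicate 2 lay within the Chow range. Kcnk2, which encodes the stretch-sensitive TREK-1, had 1.48, 1.17 and 0.987 FPKM in Chow and 0.833, 0.836 and 0.754 FPKM in HFpEF, from 57 to 104 reads per library. Its groups did not overlap, and the log2 fold change was −0.52 (unadjusted p = 0.0530, adjusted p = 0.219, limma). Kcnn2, a small-conductance calcium-activated channel, had 2.38 to 3.21 FPKM in Chow and 1.39 to 2.91 FPKM in HFpEF, with overlap. Of 20 other genes of these families, 6 were tested, and Kcnt2 and Kcnk13 were higher at an unadjusted p under 0.05. Kcnt2, a sodium-activated potassium channel, had 1.02, 0.853 and 0.959 FPKM in Chow and 2.49, 1.75 and 1.84 FPKM in HFpEF, a log2 fold change of 1.01 (adjusted p = 0.0987, limma). The 2 most abundant of these genes, Kcnn1 and Kcnk6, had HFpEF means of 0.709 and 1.73 times the Chow mean and an adjusted p of 0.220 and 0.328 (limma).

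Hcn2, a pacemaker channel also present in ventricular muscle, had the most negative fitted log2 fold change of the members. It lies on chromosome 10 from 79716634 to 79736108 and had 15.1, 14.3 and 13.4 FPKM in Chow and 9.95, 9.05 and 4.37 FPKM in HFpEF. No HFpEF library reached the Chow range, and HFpEF replicate 3 was the lowest. The HFpEF mean was 45.5% lower, and the log2 fold change was −0.95 (standard error 0.30, unadjusted p = 0.0173, adjusted p = 0.154, limma). Without HFpEF replicate 3 it was −0.59 (adjusted p = 0.0193, range over all alternatives 0.0193 to 0.416), and relative to cardiomyocyte genes it was −0.18. Hcn4, the main pacemaker channel of the sinus node, had 2.05 to 2.51 FPKM in Chow and 1.69, 2.50 and 1.16 FPKM in HFpEF. Its groups overlapped, and the ratio of Hcn4 to Hcn2 was 0.153 to 0.166 in Chow and 0.170, 0.276 and 0.265 in HFpEF. That ratio was higher in every HFpEF library than in Chow, by 0.54 on the log2 scale (exact two-sided permutation p = 0.1, adjusted p = 0.55), but HFpEF replicate 1 was close to the highest Chow library. A list of 12 sinus node and conduction genes, led by Irx3 and with Isl1 listed at 0 in every Chow library, summed to 38.8 to 43.1 FPKM in Chow and to 46.6, 44.5 and 31.3 FPKM in HFpEF. Of the list, 1 gene (Irx3) was lower and 3 (Shox2, Tbx18 and Isl1) were higher in HFpEF without overlap, where 19.8% and 15.5% of all genes tested were. Shox2 and Isl1 were below the minimum for the test, and Isl1 had 14, 1 and 6 reads in HFpEF replicates 1 to 3. The part of the listed genes in the Hcn4 values was not tested.

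Cacna1d, which encodes the Cav1.3 calcium channel of pacemaker and atrial cells, was the only member higher at an unadjusted p under 0.05. It had 0.362, 0.331 and 0.262 FPKM in Chow and 1.26, 0.566 and 0.845 FPKM in HFpEF, from 65, 49 and 40 reads and from 220, 121 and 206 reads. Every HFpEF library lay above every Chow library, HFpEF replicate 3 included, although the level was the lowest of the members in Chow after Kcna4. The HFpEF mean was 2.80 times the Chow mean, and the log2 fold change of 1.19 (standard error 0.38, unadjusted p = 0.0176, adjusted p = 0.155, limma) was also 1.19 without HFpEF replicate 3 (adjusted p = 0.175, range over all alternatives 0.0293 to 0.362). The lowest value of that range came from scaling to cardiomyocyte genes, where 55.6% of all genes had an adjusted p under 0.05. Cacna1c, which encodes the main ventricular calcium channel Cav1.2, had 21.5, 19.1 and 19.3 FPKM in Chow and 16.6, 13.9 and 10.9 FPKM in HFpEF. Cacna1c was thus lower in every HFpEF library (log2 fold change −0.55, adjusted p = 0.143, limma) where Cacna1d was higher. Trpm7, a cation channel joined to a kinase, had 6.14, 6.61 and 6.28 FPKM in Chow and 7.73, 7.10 and 6.91 FPKM in HFpEF. Trpm4, a calcium-activated cation channel, had 4.26, 4.43 and 4.32 FPKM in Chow and 4.02, 4.24 and 3.41 FPKM in HFpEF. Neither gene overlapped between groups, and neither reached an unadjusted p under 0.05.

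All 3 members among pumps and exchangers were lower in every HFpEF library than in any Chow library, as were 19.8% of all genes, but relative to cardiomyocyte genes 0 of the 3 were lower and 2 were higher without overlap (0.253% and 76.1% of all genes). Slc4a3, the chloride-bicarbonate exchanger AE3, had 39.9, 39.1 and 40.2 FPKM in Chow and 28.2, 35.4 and 22.0 FPKM in HFpEF. The Chow values lay very close together, and the log2 fold change was −0.51 (standard error 0.18, unadjusted p = 0.0266, adjusted p = 0.173, limma) and −0.33 without HFpEF replicate 3 (adjusted p = 0.115, range over all alternatives 0.105 to 0.382). Fxyd1 encodes phospholemman, the regulator of the cardiac sodium pump, and was the most abundant member, with 91.9, 93.7 and 87.4 FPKM in Chow and 77.4, 77.3 and 29.3 FPKM in HFpEF. Its low HFpEF replicate 3 made the spread wide, so the log2 fold change of −0.70 had an adjusted p of 0.302 (limma), and without that library it was −0.24 (adjusted p = 0.0686, range over all alternatives 0.0686 to 0.783). Atp1b1, the beta subunit of the pump, had 68.2, 67.2 and 74.8 FPKM in Chow and 62.2, 63.6 and 43.0 FPKM in HFpEF (adjusted p = 0.288, limma).

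Of the 11 ratios compared within libraries, that of Kcnip2 to Kcnd2 was lower and that of Hcn4 to Hcn2 higher without overlap.

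**Figure D4:**
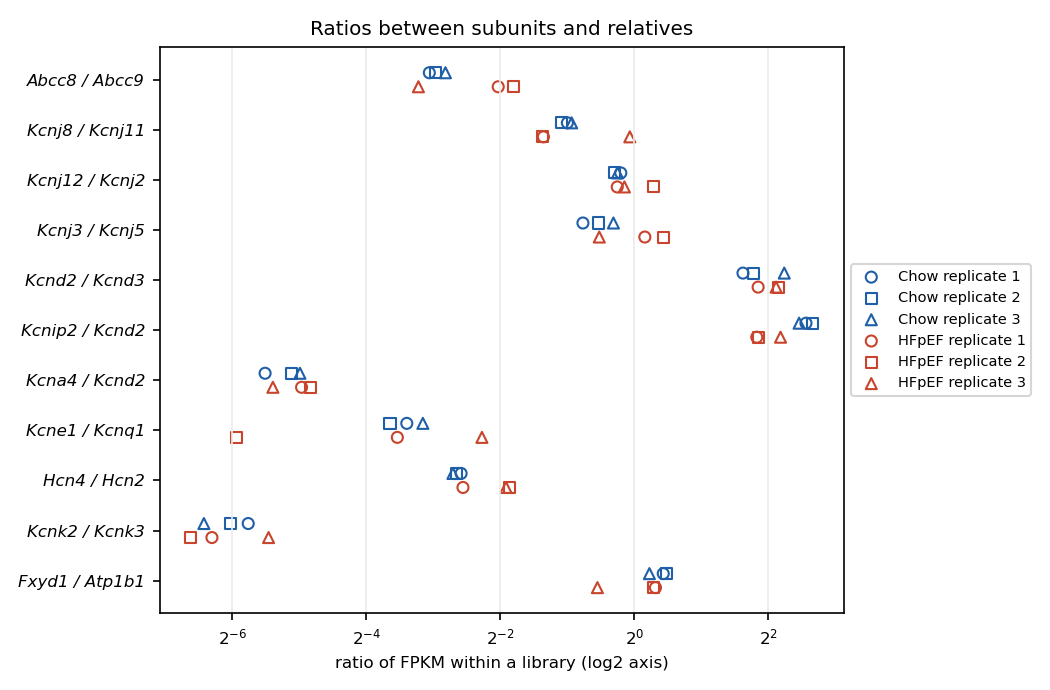
Ratio of FPKM within a library (log2 axis) for 11 pairs of subunits or related genes, with Chow in blue and HFpEF in red. The HFpEF points lie apart from Chow for Kcnip2 to Kcnd2 (lower) and Hcn4 to Hcn2 (higher), and HFpEF replicate 3 differs in side from HFpEF replicates 1 and 2 for Abcc8 to Abcc9 and Kcnj8 to Kcnj11.

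Beyond the 29 genes, 134 further channel, pump, exchanger and channel-anchoring genes were found in the table and 69 were tested. At an unadjusted p under 0.05, 15 were lower and 12 higher, where 13.1% and 10.2% of all genes were, and 0 passed an adjusted p of 0.05 (limma). Their median log2 fold change was 0.01, against −0.47 for the members and −0.01 for all genes. Relative to cardiomyocyte genes, 0 were lower and 43 higher at an unadjusted p under 0.05 (0.183% and 67.1% of all genes). On that scale 37 had an adjusted p under 0.05 (55.6% of all genes), and their median was 0.78, against 0.76 for all genes. Slc8a1, the sodium-calcium exchanger, had 45.0, 46.8 and 50.1 FPKM in Chow and 35.3, 36.6 and 32.6 FPKM in HFpEF (log2 fold change −0.44, adjusted p = 0.115). Slc12a7, a potassium-chloride cotransporter, was lower by 34.1%, without overlap. The anchoring and membrane genes Cav3, Popdc2 and Popdc3, all known from striated muscle, had HFpEF means of 0.675, 0.710 and 0.644 times the Chow mean, without overlap. Relative to cardiomyocyte genes, the log2 fold changes of Slc8a1, Slc12a7, Cav3, Popdc2 and Popdc3 were positive. The genes higher at an unadjusted p under 0.05 included the pump regulator Fxyd5, the stretch-activated channel Piezo1, the cation channel Pkd2 and the scaffold gene Cask. Calm2, which encodes calmodulin and is among the most abundant of these genes, had an HFpEF mean of 1.14 times the Chow mean (adjusted p = 0.381, limma). Fxyd5 had 1.99, 1.77 and 1.95 FPKM in Chow and 3.91, 3.55 and 7.14 FPKM in HFpEF (log2 fold change 1.24, adjusted p = 0.107). Fxyd5, Piezo1 and Pkd2 had their highest value in HFpEF replicate 3, the library with the highest fibroblast list and the lowest values of most members, and the part of fibroblast transcripts was not tested.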

How the data were processed

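Left ventricular RNA sequencing of 3 Chow and 3 HFpEF mice was analysed, grouped by the sample labels. The authors aligned reads with HISAT2 and counted them with featureCounts, and deposited FPKM per gene. The submitters' processing notes name GRCm38 and mm10. The library-size term of the FPKM and the annotation are not given in the sources used here. The term implied by the values was 14239712, 11734336 and 12093541 in Chow replicates 1 to 3. In HFpEF replicates 1 to 3 it was 13847565, 16942925 and 19316914. FPKM times the exon length of GENCODE M21 (54495 of 54532 identifiers matched) gave whole reads for 96.1% to 96.2% of values above 0 per library at a relative tolerance of 1e-06. Reads of Kcnn2 were not whole in every library and are uncertain.

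FPKM was divided by median-of-ratios factors (1.00 to 1.01), which changed the deposited scaling little. No alternative divided by plain read totals. A pseudocount of 0.1 was added, log2 values were fitted with limma 3.58.1 (R 4.3.3, lmFit and a trended, robust eBayes), and p was adjusted over the 14225 genes that reached an FPKM of 0.5 in 3 or more libraries. Fold changes are on the log2(FPKM + 0.1) scale, which understates low genes. The study's test, DESeq2, needs counts and was not the main test. Subunit ratios were compared with exact two-sided permutation tests (scipy 1.17.1). The alternatives were FPKM as deposited, quantile normalization, scaling to the 12 cardiomyocyte genes, other pseudocounts and filters, voom on the recovered reads, a replicate block and leaving out each library. The fit was tested on simulated data. The 29 genes, the wider list and the marker lists were chosen with earlier results of these data known. Named genes are all 29 members, the 2 most abundant and up to 3 lowest-p genes of each class of the wider list, the most abundant gene of each marker list with its markers at 0, and the genes of the ratios. Irx5, Irx4, Vtn, Dkk3, Nr2f2, Acta2, Myh11, Cnn1, Tagln, Pdgfrb, Notch3, Rgs4, Tbx5, Shox2 and Tbx18 were named after their values were seen. Promoters came from RefSeq. The limma p-values set the difference between groups against the spread between mice, with a variance moderated over all genes. There were 3 mice per group, and in each fit without 1 library 1 group held 2 mice. Values of a few genes that this rule names are left out.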

Additional observations from a re-analysis of the deposited data

How the results depend on the processing

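Scaling to the 12 ventricular cardiomyocyte genes changed most. It moved the median log2 fold change of all genes from −0.01 to 0.76, and that of the members from −0.47 to 0.30. The unadjusted p was then under 0.05 for 0 members in the lower and 8 in the higher direction, the groups did not overlap for 0 and 8, an adjusted p under 0.05 was reached by 7, the wider list had 0 lower and 43 higher, and 398 genes were DEGs in place of 8. Log2 fold changes that turned positive under this scaling were Scn4b 0.22, Kcnd2 0.54, Kcnd3 0.39, Kcna5 0.22, Kcnq1 0.46, Kcne1 0.10, Kcnh2 0.67, Kcnv2 0.25, Kcnj2 0.13, Kcnj12 0.33, Kcnj11 0.19, Kcnj8 0.27, Abcc8 0.56, Kcnk2 0.25, Kcnk3 0.26, Kcnn2 0.35, Hcn4 0.37, Trpm4 0.61, Atp1b1 0.43, Fxyd1 0.072, Slc4a3 0.27 among members and Scn4a 0.0070, Kcng2 0.29, Kcna7 0.18, Kcnj14 0.49, Kcnn1 0.25, Cacna1c 0.22, Slc12a7 0.17, Slc8a1 0.33, Popdc2 0.24, Cav3 0.19, Popdc3 0.12 in the wider list. Leaving out 1 library at a time, they ran from −0.45 to 0.13 for Kcnd2, −0.67 to 0.010 for Kcnd3, −0.54 to 0.12 for Kcnq1, −0.37 to 0.34 for Kcnh2 and −0.52 to 0.31 for Abcc8, positive without HFpEF replicate 3, and from −0.26 to 0.56 for Kcnj5. Kcnh2 was at 0.0098 with quantile normalization. An FPKM minimum of 1 no longer tested Cacna1d, which left 0 members higher at an unadjusted p under 0.05 and 1 higher without overlap. Under that minimum 8 members were lower at an unadjusted p under 0.05 and 12 were lower without overlap, and 5 genes were DEGs. With voom 10 members were lower and 2 higher (Cacna1d and Trpm7) at an unadjusted p under 0.05, and 0 genes were DEGs. For the FPKM minimum of 1 and for voom, the share of all genes is not given here. The counts of members under these settings are therefore not set against it. DEGs numbered 2 and 3 with pseudocounts of 1 and 0.01, and 19 with eBayes without trend or robust options. The causes of these shifts were not tested.

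Leaving out 1 library at a time gave 5 (without any 1 Chow library) to 14 members (without HFpEF replicate 2) lower and 0 (without HFpEF replicate 1) to 6 (without HFpEF replicate 3) higher at an unadjusted p under 0.05, 13 to 18 lower and 2 to 6 higher without overlap, and 0 to 6 with an adjusted p under 0.05. In the same fits 7.14% to 15.0% of all genes were lower (14.1% without HFpEF replicate 2) and 6.3% to 11.0% higher at an unadjusted p under 0.05, 23.0% to 25.5% lower and 18.9% to 22.1% higher without overlap, and 0.0141% to 8.36% had an adjusted p under 0.05. The wider list had 8 to 20 lower and 5 to 14 higher, the members' median log2 fold change was −0.60 to −0.15, and DEGs numbered 2 to 59. Same-numbered Chow and HFpEF libraries did not deviate together (correlations −0.04, −0.07 and −0.06). The labels do not say whether the numbers pair the mice, and 3 libraries per group cannot exclude it. With the replicate number as a block, 8 members were lower and 1 higher at an unadjusted p under 0.05, and 2 genes were DEGs. The share of all genes in the blocked fit is not given here, so these counts of members are not set against it. Of 166 values of single members under other pseudocounts, filters, deposited scaling and eBayes options, 162 kept their direction and side of the threshold and 0 reversed. With 3 mice per group and as few as 10 reads for Kcne1, a member that missed the threshold is not shown to be equal between groups.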

Other observations

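Lists of other cell types that were set beside the channel genes also differed between libraries. Of all genes tested, 15.5% were higher and 19.8% lower in HFpEF without overlap, and some listed genes were below the minimum for the test. Of 10 adipocyte genes, led by Plin4, 9 were higher in HFpEF without overlap, and Adipoq, Cfd, Cidec, Lep and Retn were listed at 0 in every Chow library. The list summed to 26.6, 29.1 and 30.0 FPKM in Chow and to 121, 119 and 56.0 FPKM in HFpEF replicates 1 to 3. Of 10 neuron and Schwann cell genes, led by Cdh19, 5 were higher without overlap, and the sums were 7.99, 7.06 and 6.35 FPKM in Chow and 13.0, 11.9 and 7.07 FPKM in HFpEF, with Th and Snap25 listed at 0 in every Chow library. Of 10 endothelial genes, led by Aqp1, 5 were lower without overlap, with sums of 546 to 572 FPKM in Chow and 406 to 482 FPKM in HFpEF. Red blood cell genes, led by Hbb-bs, did not separate the groups, with sums of 280, 1591 and 501 FPKM in Chow and 1813, 478 and 585 FPKM in HFpEF. Of 7 transmural factors, led by Nkx2-5, 3 (Irx3, Irx4 and Irx5) were lower and 0 higher without overlap, and Tbx5 was above Chow in HFpEF replicates 1 and 2 and below it in HFpEF replicate 3.

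Exons of genes on the opposite strand also cover 18.7% of the exon length of Atp1b1 (Nme7) and 12.2% of that of Kcnk2 (A430027H14Rik). A430027H14Rik had at most 0.191 FPKM.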
